A study of Mus musculus with 18 samples.

Results

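The genes described here are 9 members of the insulin signalling pathway, taken by symbol from a count table of mouse adipose tissue with 54347 genes. They were the insulin receptor Insr, its inhibitor Grb14, the receptor substrates Irs1, Irs2 and Irs3, the regulatory PI3-kinase subunit Pik3r1, the kinases Akt1 and Akt2, and the transcription factor Foxo1. Each symbol was found once, and 9 of 9 passed the filter on low counts, among 18728 genes tested in all. Their positions are given below on GRCm38, from GENCODE M21.

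Polyadenylated RNA had been sequenced from a brown depot, the interscapular fat pad (iBAT), and from the inguinal (iWAT) and epididymal (eWAT) white depots of 6 mice on the C57BL/6N background. The mice were 12 weeks old, and the wild types were litter mates of the knockouts. The study's methods give a chow diet for these animals, whereas its results name both high-fat and control diets for the adipose transcriptomes, and the labels give no diet. Of these, 3 were wild type (wt) and 3 were knockout (ko) animals with a CRISPR/Cas9 deletion that includes exon 1 of the long noncoding RNA gene Gm15551, backcrossed to wild type for 2 generations. The deletion was in the germline, so it was not limited to adipocytes. Each mouse gave all 3 tissues, which made 18 libraries in 6 groups of 3. The feeding state at collection is not given in the sources used here.

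Total estimated counts ranged from 14997901 to 34389586 per library. Gm15551 itself had 40 to 316 counts in the wt libraries and 0 to 4 in the ko libraries. The summed level of 6 thermogenic genes, among them Ucp1, was 6849 to 12766 CPM (normalised counts, scaled to library size) in iBAT and 10 to 240.3 CPM in the white tissues, so the tissue labels and their markers matched. Mitochondrial transcripts took 22.9 to 27.0% of the counts in iBAT and 3.77 to 9.64% in the white tissues, and the scaling factors that follow from such differences in makeup were 0.617 to 0.744 and 1.06 to 1.44. A few white libraries held transcripts of neighbouring tissue. Lymph node genes summed to 1047 CPM in iWAT wt replicate 3 and 426 CPM in iWAT ko replicate 2, skeletal muscle genes to 4386 CPM in iWAT ko replicate 1, and epididymis genes to 5092 CPM in eWAT ko replicate 3. The sum of 6 adipocyte genes was 5950.1, 9549 and 7893 CPM in iWAT wt replicate 3, iWAT ko replicate 2 and eWAT ko replicate 3, below the 13452 to 20102 CPM of the other white libraries and the 10141 to 11006 CPM of iBAT. In bulk tissue, fewer cells of a type and less RNA per cell cannot be told apart.

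Insulin binds a receptor tyrosine kinase, which phosphorylates the Irs proteins, and these recruit PI3-kinase through its regulatory subunit. The lipid that PI3-kinase makes brings Akt to the membrane, where it is activated. In adipocytes Akt2 drives the glucose transporter Glut4 to the surface, restrains lipolysis and keeps FoxO factors such as Foxo1 out of the nucleus. Grb14 binds the active receptor and inhibits it. Irs3 is an adipose-enriched substrate of rodents.

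The upstream sequences of the substrates and of the 2 Akt kinases are shown first, since the levels of these genes are set against each other below. The RefSeq table for GRCm38.p6 held 13 windows for 8 of the 9 members, all but Insr, each with the 250 bases before an annotated start. Capitals mark matches on either strand to 4 motifs: the E-box CACGTG, the insulin response element core TGTTTTG, the FoxO core GTAAACA and the nuclear receptor hexamer AGGTCA. The Irs1 window (chr1:82291440-82291689, minus strand) and the Akt1 window (chr12:112674885-112675134, minus strand) overlapped no gene of GENCODE M21, as was the case for the Irs3 window (chr5:137645715-137645964, minus strand) and the first Akt2 window (chr7:27591302-27591551, plus strand). The Irs2 window (chr8:11008930-11009179, minus strand) lay within the gene 9530052E02Rik and overlapped 0 of its exons.
Irs1: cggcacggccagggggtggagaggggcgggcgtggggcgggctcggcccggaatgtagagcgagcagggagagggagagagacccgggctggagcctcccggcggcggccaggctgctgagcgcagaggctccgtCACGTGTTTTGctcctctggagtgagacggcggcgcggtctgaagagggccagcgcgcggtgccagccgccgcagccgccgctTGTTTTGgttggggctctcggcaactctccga
Irs2: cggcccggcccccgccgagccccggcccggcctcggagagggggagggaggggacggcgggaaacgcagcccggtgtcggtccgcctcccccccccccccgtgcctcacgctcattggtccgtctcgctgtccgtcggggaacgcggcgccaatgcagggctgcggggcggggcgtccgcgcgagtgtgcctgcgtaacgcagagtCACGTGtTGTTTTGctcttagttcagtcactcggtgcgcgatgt
Irs3: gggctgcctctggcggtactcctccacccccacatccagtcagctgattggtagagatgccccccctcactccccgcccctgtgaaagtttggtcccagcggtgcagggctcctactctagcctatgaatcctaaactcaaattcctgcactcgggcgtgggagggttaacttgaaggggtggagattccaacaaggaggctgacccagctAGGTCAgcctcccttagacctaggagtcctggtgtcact
Akt1: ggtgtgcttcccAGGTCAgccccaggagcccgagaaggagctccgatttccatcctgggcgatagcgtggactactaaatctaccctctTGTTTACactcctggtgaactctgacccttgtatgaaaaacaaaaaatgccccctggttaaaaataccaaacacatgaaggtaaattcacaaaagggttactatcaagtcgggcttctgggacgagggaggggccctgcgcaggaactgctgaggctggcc
Akt2: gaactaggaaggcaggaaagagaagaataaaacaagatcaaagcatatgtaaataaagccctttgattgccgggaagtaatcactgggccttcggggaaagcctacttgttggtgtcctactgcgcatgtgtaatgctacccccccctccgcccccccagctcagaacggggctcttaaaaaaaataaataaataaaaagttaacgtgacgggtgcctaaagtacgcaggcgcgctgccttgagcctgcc
Irs1 and Irs2 both carried an E-box next to an insulin response element core. In Irs1 the E-box ended 110 bases before the start and shared 2 bases with the core that follows it, and a further core began 32 bases before the start. In Irs2 the E-box ended 39 bases before the start and the core began at 37. Among 32851 windows of the same length, 6.02% held the E-box, 5.56% the insulin response element core, 3.17% the FoxO core and 14.0% the hexamer. An E-box and an insulin response element core less than 10 bases apart were found in 7 windows, 0.0213% of all, and 2 of these 7 were those of Irs1 and Irs2. This pairing was noticed after the sequences had been seen. Irs3 held 1 hexamer, Akt1 held 1 hexamer and 1 FoxO core, and the first Akt2 window held none of the 4 motifs. A match describes these letters and is not a measured binding site.

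Within a tissue, the members differed widely in level. Per kilobase of annotated exon, Akt2 ranked first in each tissue, with 93.97 ± 9.77 CPM per kb in iBAT, 54.7 ± 17.8 in iWAT and 48.3 ± 13.9 in eWAT (SD, n = 6). Akt1 ranked second in each tissue, with 30.8 ± 1.61 CPM per kb in iBAT. In iBAT, the 6 Akt2 values lay above the 6 Akt1 values, and these in turn lay above those of Irs3, whereas in iWAT and eWAT the Akt2 and Akt1 values overlapped. Irs1 ranked last in each tissue, with 1.501 ± 0.390 CPM per kb in iBAT, 2.50 ± 1.03 in iWAT and 1.75 ± 0.746 in eWAT. Its values lay below those of the other members in iBAT, but overlapped with those of Grb14, the next one up, in iWAT and eWAT. Among the substrates, Irs3 stood at 17.5 to 19.0 CPM per kb and Irs2 at 6.82 to 10.4 CPM per kb as means of the 3 tissues. In the middle ranks, from Irs3 and Pik3r1 through Foxo1 to Insr, each gene overlapped with the next one down in each tissue, apart from Insr in eWAT, which did not overlap with Grb14 below it.

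**Figure D1:**
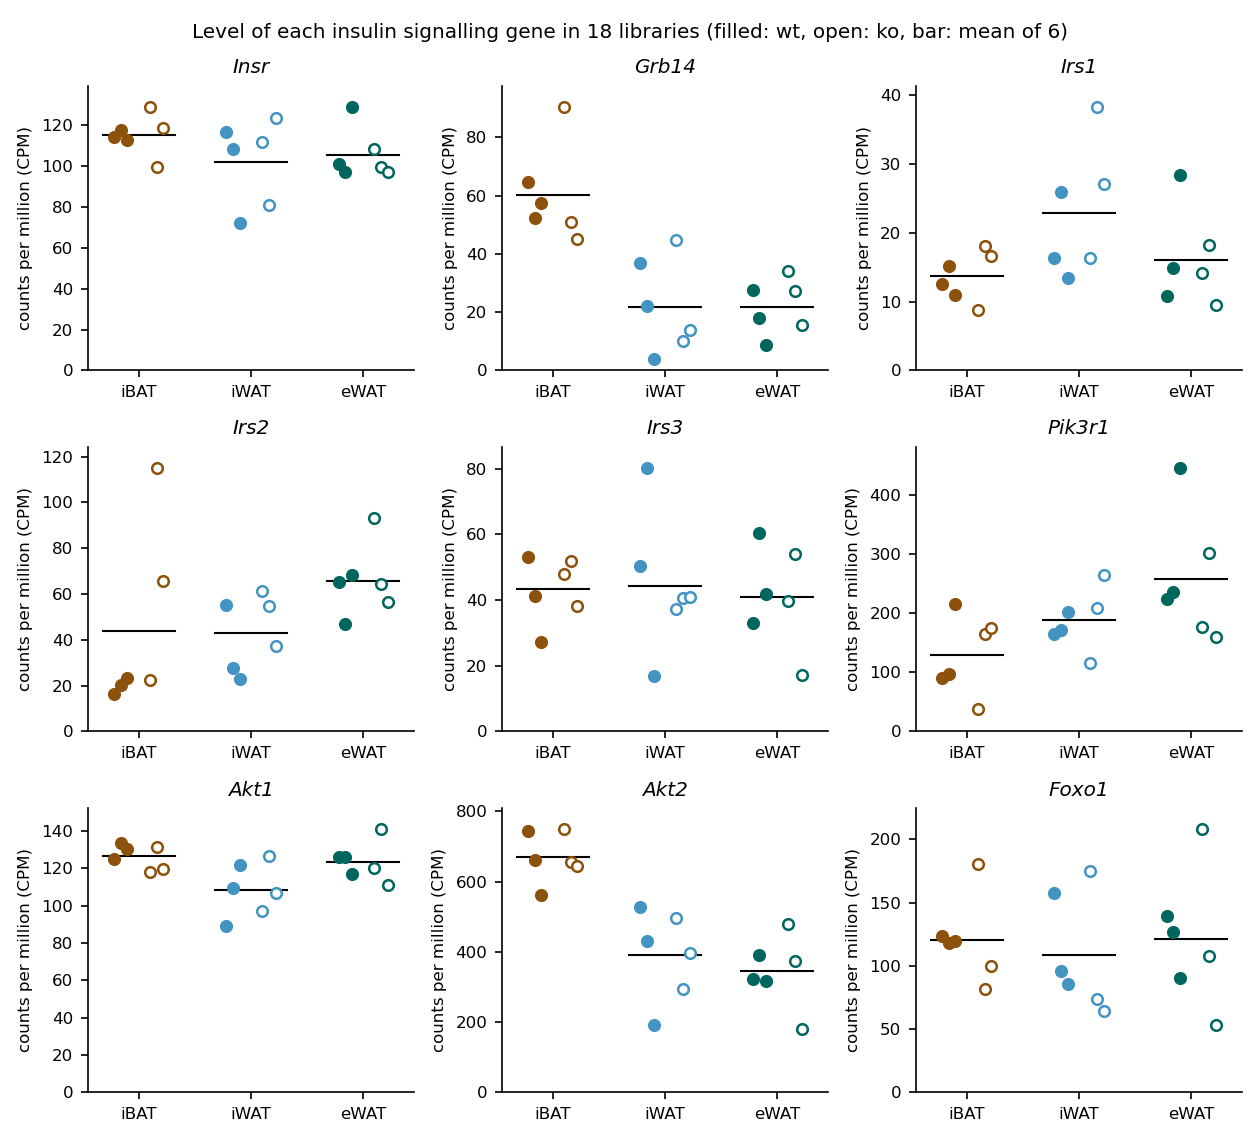
Level of each of the 9 members in CPM (y axis, starting at 0) by tissue (x axis), with 1 point per library, filled for wt and open for ko, and a bar at the mean of the 6 libraries of a tissue. Grb14 and Akt2 are the members whose 6 iBAT points all lie above the 12 white points, as was so for 14.7% of all genes tested, and Irs2 shows a wide spread among the ko points of iBAT.

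Between brown and white tissue, 2 members stood apart in both white depots: Grb14 and Akt2 were higher in iBAT. Against iWAT, 3 of the 9 members were higher in iBAT and 1 was lower by edgeR's quasi-likelihood test at an adjusted p of 0.05, where 24.0% of all genes tested were higher and 30.3% were lower. Against eWAT, 2 were higher and 1 was lower, where 24.4% of all genes were higher and 30.2% were lower. In all, 10164 and 10220 of the 18728 genes were called in these comparisons, so a call between brown and white fat was common. The median log2 fold change of the members was 0.15 against iWAT and 0.03 against eWAT, beside -0.14 and -0.17 over all genes. Both comparisons use the same iBAT libraries. Without the 4 white libraries with transcripts of neighbouring tissue, 4 and 3 members were called, as with all libraries.

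Insr (ENSMUSG00000005534.10, chr8:3122061-3279617, minus strand), the receptor, spanned 0.84 on the log2 scale over the 18 libraries, less than any member but Akt1. Its level in CPM was 99.9, 116 and 129 in iBAT (lowest, median and highest of 6 libraries, as for the members below), 72.2, 110.2 and 124 in iWAT and 97.1, 100.2 and 129 in eWAT. The ranges overlapped throughout. The log2 fold change was 0.17 ± 0.13 (SE) against iWAT and 0.13 ± 0.13 against eWAT, with edgeR adjusted p of 0.256 and 0.394, and the 95% interval of the first ran from -0.09 to 0.44.

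Grb14 (ENSMUSG00000026888.14, chr2:64912476-65024987, minus strand), the inhibitor that docks on the receptor, had the largest log2 fold changes of the 9 members between iBAT and either white depot. It reached 45.0, 54.9 and 90.4 CPM in iBAT, 3.96, 17.96 and 44.7 in iWAT and 8.89, 22.5 and 34.0 in eWAT. The lowest iBAT library was just above the highest iWAT library, iWAT ko replicate 1 with 44.7 CPM. The log2 fold change was 1.46 ± 0.45 against iWAT, a 2.75-fold higher level with an edgeR adjusted p of 0.0113. Against eWAT it was 1.48 ± 0.45, or 2.78-fold, with an adjusted p of 0.0106. The lowest white value, 3.96 CPM, came from iWAT wt replicate 3, the library with the lowest adipocyte sum. Without the 4 white libraries that held neighbouring tissue, Grb14 was still higher, by 1.26 (adjusted p = 0.0171) and 1.37 (adjusted p = 0.00214) on the log2 scale. In the 3 wt mice alone Grb14 differed by 1.48 (adjusted p = 0.112) and 1.68 (adjusted p = 0.0804), which did not pass.

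Of the 3 substrates, edgeR over the 18 libraries called Irs1 in 1 comparison between tissues, and Irs2 and Irs3 in 0. Irs1 (ENSMUSG00000055980.2, chr1:82233101-82291416, minus strand), the classical adaptor of insulin action on glucose uptake, was at 8.77, 13.9 and 18.1 CPM in iBAT, 13.5, 21.1 and 38.3 in iWAT and 9.46, 14.5 and 28.4 in eWAT. It was lower in iBAT than in iWAT, with a log2 fold change of -0.73 ± 0.29 (edgeR adjusted p = 0.0441), although the ranges overlapped. Against eWAT its log2 fold change was -0.23 ± 0.29 (adjusted p = 0.524). The Irs1 call against iWAT sat close to the threshold, as it was lost when ko replicate 1, 2 or 3 or wt replicate 1 or 2 was left out (adjusted p of 0.0641 to 0.114), and the log2 fold change then ranged from -0.79 to -0.63. The Irs1 call was also lost with no filter on low counts (adjusted p = 0.0507), with limma voom, at -0.57 (adjusted p = 0.0585), and in wt libraries only, at -0.52 (adjusted p = 0.292).

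Irs2 (ENSMUSG00000038894.7, chr8:10984681-11008458, minus strand), the other widely expressed substrate, had means of 43.8 CPM in iBAT, 43.1 in iWAT and 65.8 in eWAT. Its range in iBAT, 16.2 to 115 CPM with a median of 22.8, was wider than in either white depot, where it was 22.7 to 61.2 CPM and 47.0 to 93.3 CPM. The iBAT to eWAT difference of -0.79 ± 0.36 did not pass (edgeR adjusted p = 0.0777). It passed with at least 10 counts required in every library, at -0.86 (adjusted p = 0.0467), without ko replicate 2, whose iBAT library held the 115 CPM, at -1.25 (adjusted p = 0.00670), and in the wt libraries alone, at -1.60 (adjusted p = 0.00565).

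Irs3 (ENSMUSG00000047182.6, chr5:137643031-137645714, minus strand) was the member for which tissue took the smallest share of the variance, 1.26%. It was at 43.3 ± 9.77 CPM in iBAT, 44.4 ± 20.8 in iWAT and 41.0 ± 15.4 in eWAT (SD, n = 6). The log2 fold changes were -0.02 ± 0.31 against iWAT (adjusted p = 0.956) and 0.09 ± 0.31 against eWAT (adjusted p = 0.825), and their 95% intervals reached from -0.69 to 0.64 and from -0.57 to 0.75. Its lowest libraries were iWAT wt replicate 3 with 16.8 CPM and eWAT ko replicate 3 with 17.1 CPM, both among the 3 with the lowest adipocyte sums.

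Pik3r1 (ENSMUSG00000041417.15, chr13:101680563-101768217, minus strand) encodes the regulatory subunit that docks PI3-kinase on the Irs proteins. It was at 38.5, 131 and 215 CPM in iBAT, 116, 187 and 265 in iWAT and 159.8, 229.7 and 446 in eWAT. The order of the medians was iBAT, iWAT and eWAT, with overlap between each pair. Pik3r1 was lower in iBAT than in eWAT, at -0.97 ± 0.34 on the log2 scale (edgeR adjusted p = 0.0245), a call lost without ko replicate 2, wt replicate 1 or wt replicate 2 (adjusted p of 0.0560 to 0.0789). Against iWAT the difference was -0.53 ± 0.34 (adjusted p = 0.199), and -0.66 with an adjusted p of 0.0281 when each mouse was compared with itself. The lowest value of all, 38.5 CPM, was that of iBAT ko replicate 1, and the highest, 446 CPM, that of eWAT wt replicate 3.

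Of the 2 Akt kinases, Akt2 had the larger log2 fold changes between brown and white fat. Akt2 (ENSMUSG00000004056.15, chr7:27591552-27640826, plus strand) was at 563, 659 and 749.6 CPM in iBAT, 191, 414 and 528 in iWAT and 182, 348 and 481 in eWAT. The lowest iBAT library was above the highest white library. It was higher in iBAT by 0.78 ± 0.23 on the log2 scale against iWAT (1.72-fold, edgeR adjusted p = 0.00972) and by 0.96 ± 0.23 against eWAT (1.94-fold, adjusted p = 0.00239). Without the 4 white libraries that held neighbouring tissue these values were 0.54 (adjusted p = 0.00750) and 0.82 (adjusted p = 5.36e-05). In the 3 wt mice alone Akt2 differed by 0.77 (adjusted p = 0.0986) and 0.93 (adjusted p = 0.0560), which did not pass. Akt1 (ENSMUSG00000001729.14, chr12:112653821-112674884, minus strand), the kinase more tied to growth, differed less, with 118, 128 and 134 CPM in iBAT, 89.3, 108 and 127 in iWAT and 111, 123 and 141 in eWAT. Its log2 fold change was 0.22 ± 0.09 against iWAT (adjusted p = 0.0474) and 0.03 ± 0.09 against eWAT (adjusted p = 0.779). The first of these lost its call without any one of ko replicates 1 and 3 or wt replicates 1, 2 and 3 (adjusted p of 0.0576 to 0.147) and under upper quartile scaling (0.12, adjusted p = 0.263). The call was also lost with no filter on low counts (edgeR adjusted p = 0.231) and with at least 10 counts in every library (0.303). With only the 2 tissues compared (0.0798) and in wt libraries only (0.139) it was lost as well.

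Foxo1 (ENSMUSG00000044167.6, chr3:52268336-52353221, plus strand), the factor that Akt excludes from the nucleus, did not pass between any tissues. It was at 81.4, 119 and 180.4 CPM in iBAT, 64.1, 90.7 and 175 in iWAT and 53.6, 117 and 208 in eWAT. Its log2 fold changes were 0.15 ± 0.31 against iWAT (edgeR adjusted p = 0.706) and -0.01 ± 0.31 against eWAT (adjusted p = 0.982).

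Between the white depots no member was called, at a background of 5.70% of genes higher and 4.50% lower in iWAT. None had an unadjusted p under 0.05 by edgeR, where 4782 of the 18728 genes did, and DESeq2 called 0 members, at a background of 14.4% of all genes. With limma voom and quality weights 1 member was called, at a background of 14.5%: Akt1, lower in iWAT at -0.32 on the log2 scale (adjusted p = 0.0125). The widest of the edgeR differences was that of Irs2, -0.65 ± 0.36 (adjusted p = 0.266), followed by 0.50 ± 0.29 for Irs1 (adjusted p = 0.302) and -0.44 ± 0.34 for Pik3r1 (adjusted p = 0.455). The tissue of origin took 56.2% of the variance of log2 CPM over the 18 libraries for Akt2, 50.5% for Grb14, 39.3% for Akt1 and 36.6% for Pik3r1, but 2.87% for Foxo1 and 1.26% for Irs3.

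**Figure D2:**
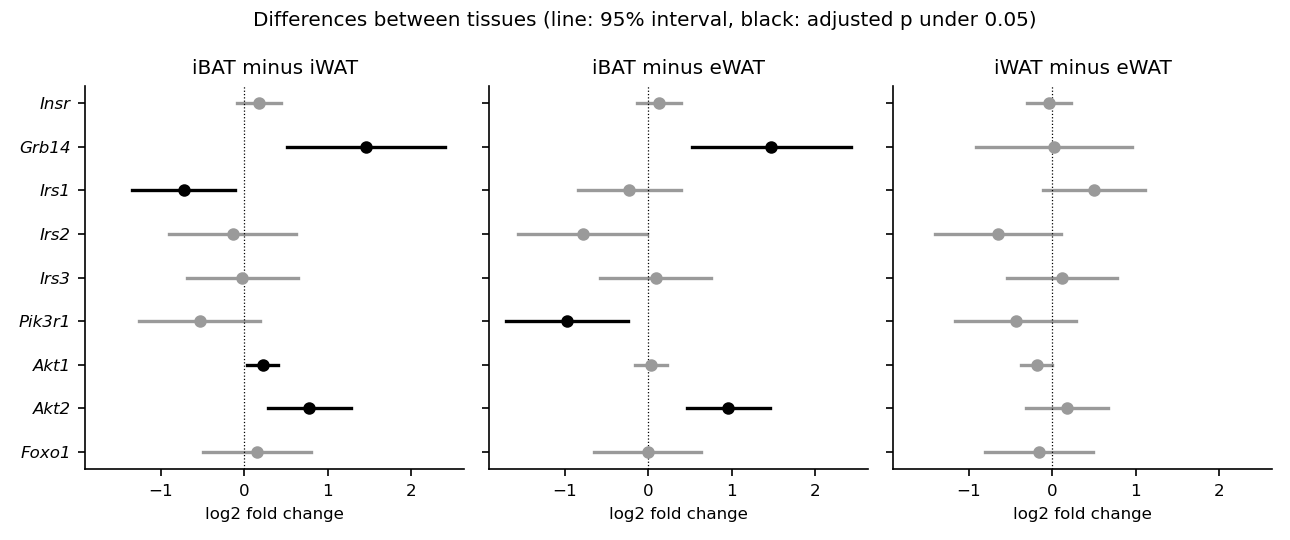
Log2 fold change of each member (x axis) in the 3 comparisons between tissues, with points at the estimate, lines for the 95% interval, and black for an edgeR adjusted p under 0.05 over all 18728 genes. Grb14 and Akt2 are black and to the right of 0 in both comparisons of iBAT with white fat, and no member is black between iWAT and eWAT.

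Ratios of counts within a library do not depend on how libraries are scaled, and each mouse can serve as its own control. Akt2 had 4.32 to 6.35 counts per Akt1 count in iBAT (median 5.19), 1.57 to 5.92 in iWAT (median 3.83) and 1.63 to 4.01 in eWAT (median 2.68). In wt replicate 1 the ratio was nearly equal in iBAT and iWAT, at 5.95 and 5.92. The ratio was higher in iBAT in 6 of 6 mice against either white depot, by 0.62 ± 0.55 and 0.98 ± 0.42 (log2, SD of the differences). Grb14 per Insr behaved alike, with medians of 0.511 in iBAT, 0.164 in iWAT and 0.228 in eWAT, and was higher in iBAT in 6 of 6 mice, by 1.63 ± 0.92 and 1.42 ± 0.73. These 4 comparisons gave p = 0.03125 each in the exact two-sided paired permutation test, the smallest p that 6 mice allow, and 0.0750 after adjustment over the 12 comparisons made, so that none of the 12 passed 0.05.

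The balance of the substrates was read from the same kind of ratio. Irs1 per Irs2 had medians of 0.433 in iBAT, 0.646 in iWAT and 0.225 in eWAT. It was higher in iWAT than in eWAT in 6 of 6 mice, by 1.19 ± 0.59 (exact permutation p = 0.03125, adjusted p = 0.0750), whereas iBAT and iWAT differed by -0.39 ± 1.30 (p = 0.469). Irs3 per Irs1 was higher in iBAT than in iWAT in 5 of 6 mice, by 0.76 ± 0.60 (exact permutation p = 0.0625, adjusted p = 0.107). Since ratios of counts carry the lengths of both transcripts, they compare libraries and not the 2 genes.

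**Figure D3:**
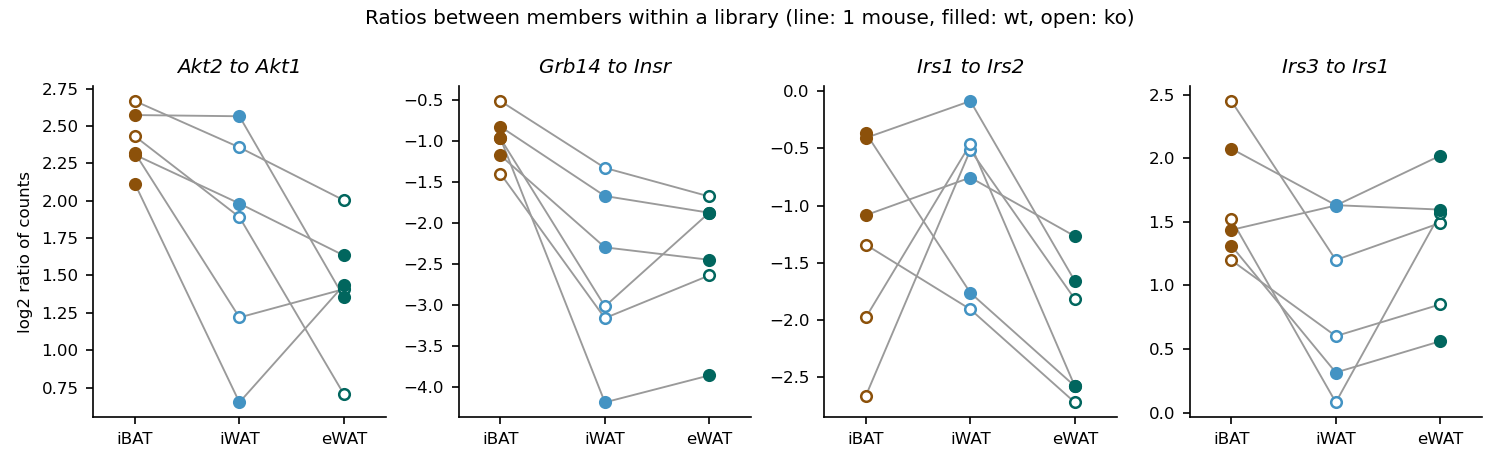
Log2 ratio of the counts of 2 members within a library (y axis) by tissue (x axis), with points for libraries, filled for wt and open for ko, and lines joining the 3 tissues of a mouse. Values for Akt2 to Akt1 and Grb14 to Insr are lower in both white depots than in iBAT in 6 of 6 mice, and those for Irs1 to Irs2 fall from iWAT to eWAT in 6 of 6. For Akt2 to Akt1, iBAT and iWAT are nearly equal in wt replicate 1.

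Within tissues, several members varied together. After the tissue means were subtracted, Pearson's r of log2 CPM over the 18 libraries was 0.79 between Akt2 and Irs3, 0.79 between Akt2 and Grb14, 0.71 between Akt2 and Foxo1 and -0.68 between Insr and Akt1. These 18 points come from 6 mice and share libraries and scaling, so the values are descriptions. In the white depots some members followed the adipocyte sum, with r over the 12 white libraries of 0.96 for Akt2, 0.86 for Irs3, 0.75 for Insr and 0.69 for Grb14, beside 0.08 for Pik3r1 and -0.34 for Akt1. In iBAT, where the adipocyte sum hardly varied, r over 6 libraries ran from -0.62 for Insr to 0.72 for Akt1, both opposite in sign to the white values, and was -0.26 for Akt2 and -0.23 for Grb14. The marker genes of the sum were Adipoq, Plin1, Cidec, Lipe, Pparg and Lpl.

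**Figure D4:**
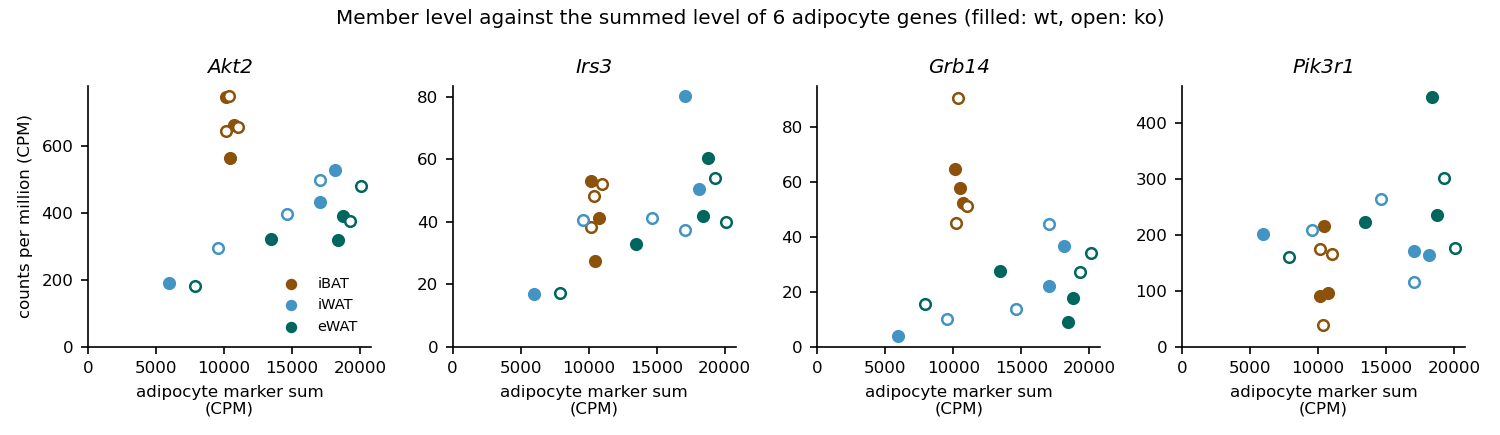
Level of 4 members in CPM (y axis) against the summed CPM of 6 adipocyte genes (x axis), with 1 point per library, coloured by tissue, filled for wt and open for ko. In white fat Akt2 and Irs3 rise with the sum, Pik3r1 does not (r = 0.08), and the 6 iBAT libraries lie above the white ones for Akt2 at a sum of 10141 to 11006 CPM.

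The genes most alike to each member were sought among all genes tested. The highest r over 18 libraries was found for Akt2, with Gm44250 (0.99) and Ppp2r5a (0.99), and after tissue means were subtracted with Mknk2 (0.98) and Plin1 (0.98). Grb14 was most like Rab6a (0.96) and Dnajb12 (0.95), and within tissues Dnajb12 (0.94) and Ncan (0.93). Irs3 was most like Zfp467 (0.91) and Nr1h3 (0.88), and within tissues Zbtb7b (0.96) and Cpt2 (0.95). For Foxo1 these were Ccnc (0.91) and Ank2 (0.88), then Ank2 (0.93) and Cmklr1 (0.92).

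Insr was most like Pde3b (0.87) and Csad (0.86), and within tissues Ppp1r9a (0.91) and Abcb10 (0.90). Pik3r1 was most like Pde9a (0.91) and Gm48653 (0.90), and within tissues the pseudogene Rps2-ps10 (0.90) and Cd63 (0.89). Irs2 was most like Fosl2 (0.83) and Btbd17 (0.76), and within tissues 4932442E05Rik (0.85) and Fosl2 (0.85). Irs1 had Gbp7 (0.84) and Iglon5 (0.84), then Iglon5 (0.79) and Abcd4 (0.79), and Akt1 had Kcnj8 (0.77) and Ncapd2 (0.75), then the pseudogene H2-T-ps (0.89) and Ssbp4 (0.87). The 2 pseudogenes share sequence with other genes, so their counts are uncertain.

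Another 86 genes of the pathway were read from the same fit, of which 83 were tested and Irs4, Igfbp1 and Trim63 were not. Against iWAT, 35 were higher in iBAT and 24 lower, and against eWAT 33 were higher and 30 lower. These 83 genes are read beside all genes, of which 24.0% were higher and 30.3% lower against iWAT, and 24.4% higher and 30.2% lower against eWAT. Of 13 Akt and mTOR kinases and partners, 9 were higher and 1 lower against iWAT, and 8 were higher and 0 lower against eWAT. Mtor, the kinase itself, was 215 CPM in iBAT and 52.5 CPM in iWAT, a log2 fold change of 2.04 ± 0.19 (edgeR adjusted p = 2.02e-07), and Deptor, its inhibitor, was higher by 2.53 ± 0.25 against eWAT (adjusted p = 2.92e-07).

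Of 11 glucose and lipid effectors, 7 were higher and 0 lower against iWAT, and 7 higher and 1 lower against eWAT. Slc2a4, which encodes Glut4, was at 846 CPM in iBAT, 238 in iWAT and 164 in eWAT, higher in iBAT by 1.83 ± 0.32 (edgeR adjusted p = 0.000144) and 2.37 ± 0.33 (adjusted p = 1.10e-05) on the log2 scale. The glycogen synthase kinase gene Gsk3a was higher by 1.05 ± 0.09 and 1.14 ± 0.09. Tbc1d1, a Rab GTPase-activating protein, was the 1 effector lower against eWAT, at -1.06 ± 0.30 (adjusted p = 0.00728).

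Of 9 genes listed as brakes on insulin signalling, 1 was higher and 5 were lower against iWAT. Against eWAT, 1 was higher and 6 were lower, so that Grb14 differed in direction from most of these genes. Its relative Grb10 was lower in iBAT, at -1.27 ± 0.23 and -1.19 ± 0.23 on the log2 scale (edgeR adjusted p = 0.000188 and 0.000325), and so was the receptor phosphatase Ptprf, at -2.50 ± 0.42 and -4.03 ± 0.45. Ptprf was highest in eWAT ko replicate 3, which held epididymis genes, and was at 37.0 to 116 CPM in the other eWAT libraries. Against eWAT its log2 fold change was -3.53 without the 4 libraries that held neighbouring tissue and -3.23 with limma voom. Trib3 was the 1 that was higher, by 1.06 ± 0.32 and 0.81 ± 0.32. The Trib3 call was lost in 4 of 17 alternatives against iWAT and in 10 of 17 against eWAT, where the difference was 0.36 (edgeR adjusted p = 0.249) without ko replicate 3, 0.69 (0.122) without wt replicate 3 and 0.85 (0.0758) without ko replicate 1. Against iWAT, Trib3 differed by 0.83 (0.0727) without wt replicate 3. Among ligands and receptors, Igf1 was lower in iBAT, at -2.61 ± 0.33 and -3.03 ± 0.34 (adjusted p = 5.83e-06 and 1.01e-06).

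Of 10 adaptors tested, 5 were higher and 4 lower against iWAT, and 4 higher and 5 lower against eWAT. Sh2b1 and Sh2b2, adaptors that bind the receptor, were higher by 1.12 ± 0.08 and 2.03 ± 0.33 against iWAT, and Gab2 was lower at -1.82 ± 0.22 against eWAT. Beside Pik3r1, 3 of 6 genes of PI3-kinase and PDK1 were lower and 1 higher against iWAT, and 4 were lower against eWAT. The catalytic subunit gene Pik3cb was lower at -1.50 ± 0.24 and -1.34 ± 0.23, and Pik3cd, which is known from leukocytes, at -3.11 ± 0.60 against iWAT. Pik3cd was at 155 CPM in iWAT wt replicate 3 and 93.4 CPM in iWAT ko replicate 2, the libraries with the highest lymph node sums, and at 12.7 to 21.4 CPM in the other iWAT libraries. Its log2 fold change was -1.51 (edgeR adjusted p = 0.000453) without the 4 libraries that held neighbouring tissue. Macrophage markers summed to 35.1 to 79.4 CPM in iBAT and 71.7 to 564 CPM in the white tissues, and their part in these values was not tested. Of 6 phosphatases, 2 were higher and 3 lower in each comparison.

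Beside Foxo1, Foxo4 was higher in iBAT by 1.12 ± 0.11 and 1.18 ± 0.11, and Foxo3 was lower at -0.55 ± 0.19 and -0.88 ± 0.19, while Foxo6 was not called. The Foxo3 call against iWAT was lost in 5 of 17 alternatives (edgeR adjusted p of 0.0629 to 0.0815), which were those without ko replicate 1, wt replicate 1 or wt replicate 2, without the 4 libraries that held neighbouring tissue, and in wt libraries only. Of 12 FoxO targets tested, 2 were higher and 4 lower against iWAT, and 3 higher and 5 lower against eWAT. Pdk4, the pyruvate dehydrogenase kinase, was at 2229 CPM in iBAT, 116 in iWAT and 34.1 in eWAT, and the lipase gene Pnpla2 was higher by 1.07 ± 0.26 and 1.47 ± 0.26. Sesn3 and Cited2 were lower at -1.40 ± 0.17 and -1.39 ± 0.29 against iWAT. Of the 8 genes of the Ras and MAP kinase arm, 6 were higher in either comparison, 1 was lower against iWAT and 2 against eWAT. Between the white depots 6 of the 83 pathway genes were higher in iWAT and 2 lower, beside 5.70% and 4.50% of all genes. The count of 8 varied from 0 with only those tissues in the fit to 17 with the adipocyte sum, as deviation from the mean of its tissue, as a covariate added after the data had been seen.

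The comparison of genotypes asked whether loss of Gm15551 alters these genes. No member was called across the 3 tissues, where 1 of all genes was called, 0.00534%. None was called in iBAT (background 0%), in iWAT (background 0%) or in eWAT (background 0.00534%), and none had a called interaction of genotype with tissue (background 0%). At an unadjusted p under 0.05, edgeR counted 1 member across tissues, 1 in iBAT and 0 in the others, each time Irs2. Of all 18728 genes, 411 had such a p across tissues, 238 in iBAT, 415 in iWAT, 814 in eWAT and 264 for the interaction. DESeq2 and limma voom called 0 members in each of these comparisons, where DESeq2 called 0.0214% of all genes across tissues, 0.0694% in iBAT, 0.0214% in iWAT, 0.0694% in eWAT and 0% for the interaction, and limma voom 0.0107% across tissues, 0.0160% in eWAT and 0% in the others. No member had ko and wt libraries that did not overlap in any tissue, where 4.94% of all genes did not overlap in iBAT, 4.92% in iWAT and 5.25% in eWAT.

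Irs2 was at 16.2, 20.2 and 23.3 CPM in the wt libraries of iBAT and at 22.3, 115 and 65.8 CPM in ko replicates 1, 2 and 3. So 2 ko libraries were high, and the remaining one lay within the wt range. The log2 fold change in iBAT was 1.76 ± 0.46, with an unadjusted edgeR p of 0.00178 and an adjusted p of 1, and DESeq2 gave an adjusted p of 0.162. It fell to 1.14 without ko replicate 2. In iWAT Irs2 was at 55.3, 27.5 and 22.7 CPM in wt and 61.2, 54.7 and 37.2 CPM in ko, a log2 fold change of 0.54 ± 0.45. Without the 4 libraries that held neighbouring tissue it was -0.16, a value that rests on 1 ko library, replicate 3, against wt replicates 1 and 2 and has its spread from the other groups. In eWAT it was at 65.1, 47.0 and 68.5 CPM in wt and 93.3, 64.2 and 56.7 CPM in ko, with 0.25 ± 0.45. Across tissues Irs2 gave 0.84 ± 0.30 (unadjusted p = 0.0124, edgeR adjusted p = 0.9999), and the interaction had an unadjusted p of 0.0717 (adjusted p = 1).

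For the other members, as for Irs2, the values across tissues come from 9 ko and 9 wt libraries, which the fit treats as independent although they come from 6 mice, so the intervals do not take up the spread between mice. Akt1 was the most tightly bound, with a log2 fold change across tissues of -0.01 and a 95% interval from -0.16 to 0.15. Insr lay between -0.22 and 0.22, Akt2 between -0.36 and 0.44, and Irs1 between -0.39 and 0.62. Wider intervals were those of Grb14, from -0.52 to 1.001, Pik3r1, from -0.74 to 0.44, Irs3, from -0.68 to 0.40, and Foxo1, from -0.55 to 0.51. Within iBAT the Grb14 interval was wider still, from -1.31 to 1.498. Of the other 83 pathway genes, 0 were called across tissues and 2 had an unadjusted p under 0.05, Phlpp2 and Pdk4.

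**Figure D5:**
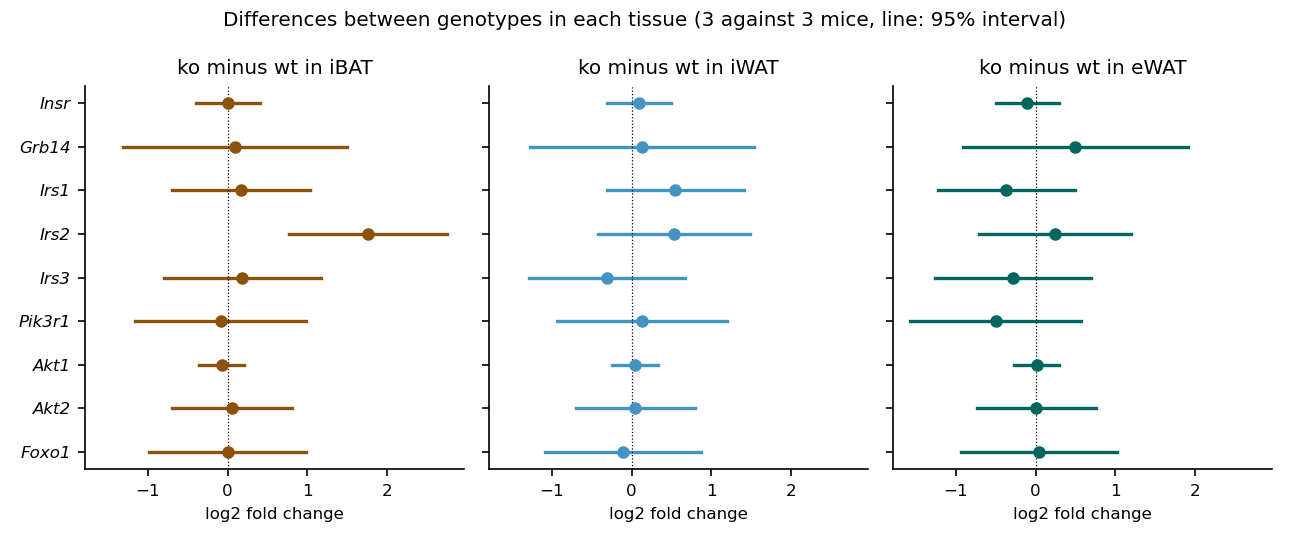
Log2 fold change of ko against wt (x axis) for each member in iBAT, iWAT and eWAT, with points at the edgeR estimate and lines for the 95% interval, 3 mice against 3. The interval includes 0 for 26 of the 27 values, and Irs2 in iBAT at 1.76 is the exception.

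Between genotypes, the exact permutation test of 3 mice against 3 cannot give a p under 0.1, so no ratio could pass. The mean log2 ratio of Akt2 to Akt1 over the tissues of a mouse was 1.89 ± 0.39 in ko and 1.85 ± 0.40 in wt mice (SD, n = 3, exact permutation p = 1). Irs1 to Irs2 was -1.78 ± 0.19 in ko and -1.11 ± 0.43 in wt mice, with an exact two-sided permutation p of 0.1, and 0.4 after adjustment over 4 ratios. The 2 groups of mice did not overlap in this ratio.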

How the data were processed

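Polyadenylated RNA from 18 samples had been sequenced in read pairs, trimmed with cutadapt and quantified by the authors with salmon against GENCODE M22 or M22 with RNAcentral, with GRCm38 as genome. Not given in the sources used here are the choice between those references, how strand was handled and how transcripts were joined into genes. The deposited values are estimated counts per gene, given as whole numbers and not scaled. The 9 members and the pathway and marker lists were chosen with earlier results of these data known.

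Genes were filtered with filterByExpr, libraries scaled by TMM, and all 18728 genes fitted with edgeR 4.0.16 (R 4.3.3) quasi-likelihood tests on tissue and genotype, or on the 6 groups for genotype within tissue and the interaction. P-values were adjusted by Benjamini-Hochberg over all genes, with a threshold of 0.05. DESeq2 1.42.0 and limma 3.58.1 (voom with quality weights) were alternatives, beside other scaling, other filters, mice left out in turn, wt mice only and 4 white libraries left out. CPM are TMM-scaled. Levels between genes were divided by the exon union of GENCODE M21. Log2 ratios used a pseudocount of 0.5. The scripts were tested on simulated data.

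For the ratios and for the alternative with the mouse as a block, tissues were paired by the mouse identifier in the labels. The main edgeR fits had no term for the mouse. Deviations of libraries of the same mouse correlated with r of -0.165 to 0.326 (median 0.0573), over 0.1 in 7 of 18 pairs. Between tissues of other mice of the genotype, r was -0.268 to 0.204 (median -0.0369), over 0.1 in 6 of 36 pairs. Named pathway genes were taken from up to 2 higher and 2 lower genes with the smallest p per role and comparison, and genes most alike were the 2 with the highest r. With 3 mice a group, p-values of the main edgeR fits measure the spread among libraries, which are treated as independent although 6 mice gave them. In the main tests of ratios the mouse is the unit. A count of 3, taken as the detection floor, was 0.0728 to 0.235 CPM. The result of 1 gene of the pathway list is not reported here.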

Additional observations from a re-analysis of the deposited data

Results flagged for a closer look

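Insr in eWAT wt replicate 3 stood at 129 CPM, apart from the other 5 eWAT libraries, of which the highest had 109 CPM. The gap was 0.640 of the whole range, above the 95% critical value of Dixon's test for 6 samples. Of 27 sets of 6 libraries examined (9 members in 3 tissues), this was the 1 set past that value, where chance at 1 in 20 gives 1.35.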

How the results depend on the processing

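No member result changed sign together with a call in the 17 alternatives run between tissues, the 16 between genotypes or the 14 for the interaction. Of 1161 member values under alternatives, 1131 kept their side of the threshold, 25 lost a call and 5 gained one. For the 69 pathway results named by the rule, which were called to begin with and so could not gain a call, 1061 of 1171 values did so and 110 lost the call. The 4 members called between iBAT and iWAT became 2 with no filter on low counts and 0 in wt libraries only, and 2 to 3 when each mouse was left out in turn. Between iWAT and eWAT, limma voom called 1 member in place of 0. Pathway genes called in wt libraries only were 37 against iWAT and 40 against eWAT, in place of 59 and 63. Between iWAT and eWAT the 8 pathway genes called became 5 with no filter, 15 with DESeq2, 14 with limma voom, 17 with the adipocyte sum as a covariate (chosen after seeing the data), 0 with only the 2 tissues, 0 in wt libraries only and 1 to 5 when a mouse was left out. Fewer mice enter the fits with wt libraries only and without a mouse, and for the others the cause was not tested. Without pairing by mouse, 3 ratios passed the exact permutation test: Akt2 to Akt1 between iBAT and eWAT (0.98, adjusted p = 0.0130), and Grb14 to Insr between iBAT and iWAT (1.63, adjusted p = 0.0173) and between iBAT and eWAT (1.42, adjusted p = 0.0130). Between genotypes, mice share only replicate numbers. With the number as a replicate block, edgeR called 3 genes across tissues in place of 1, and 0 members both ways, and the Irs2 log2 fold change was 0.82 in place of 0.84. Same-numbered libraries correlated with r of -0.465 to 0.551. The mouse as a block changed no member call other than that of Pik3r1 between iBAT and iWAT. The lowest member level, 3.96 CPM for Grb14, was above the floor of 0.0728 to 0.235 CPM, so each member was detected in each library. An effect of depth on the calls was not tested.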
